A study of Mus musculus with 16 samples.

Results

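The transcriptome of the normal mouse heart at E9.25 was described from the 4 control arrays of a series of 16 arrays. These were the samples titled as controls, all 4 of which were used. The hearts came from embryos with 22 to 24 somites, labelled wild type, on a mixed background of C57/BL6 and 129Ola. The other 12 arrays carry hearts of MesP1-cre:RBPJlox/lox (KO, n = 3), MesP1-cre:RBPJlox/lox//Axin2-/- (DKO, n = 4), MesP1-cre:RBPJlox/+//Axin2-/- (hetDKO, n = 3) and MesP1-cre:RBPJlox/lox//Axin2+/- (DKOhet, n = 2) embryos of the same stage and background. In these, MesP1-cre acts in early mesoderm, RBPJ is the DNA-binding protein of the Notch pathway and Axin2 is a brake on Wnt signalling. The mutant arrays entered the normalisation, the spread within other genotypes and the tests of the beadchip, and their levels were not compared with those of the controls. The labels do not say whether each array is a separate embryo or a pool, so spreads and p-values describe these arrays and may be technical in part.

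At this stage the heart is a looped tube in which a myocardial wall surrounds an endocardial lining, with a cell-poor jelly between them. Atrial and ventricular chambers are beginning to balloon out, cells of the second heart field are still being added at both poles, and the first mesenchyme enters the cushions that will form valves. Embryonic muscle uses sarcomere isoforms that differ from those of the adult, and the tube already pumps primitive red cells made in the yolk sac.

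Each array reports the average brightness of the beads that carry a probe, as an intensity on a linear scale with no background removed. Values called log2 signal are these intensities after background correction, an offset of 16 and quantile normalisation over the 16 arrays, on a scale where a difference of 1 is a doubling. A probe was called detected on an array where its detection p, which sets it against the negative control beads of that array, was under 0.05. Controls 1 and 3 lay on beadchip 1, and controls 2 and 4 lay on beadchip 2. The arrays detected 12646, 12574, 12492 and 13196 of 25696 probes, in the order control 1 to control 4, with median intensities of 188.3, 187.0, 183.05 and 193.1. The log2 signals of any 2 control arrays correlated with r of 0.967 to 0.988 across 12935 probes. The closest arrays were controls 1 and 3, with a median absolute difference of 0.144, and the farthest were controls 3 and 4, with 0.315. Control 4 stood farther from each of the others than they stood from each other. Because probes bind with different strength, an order of brightness is an order of probes and not of transcript amounts.

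Of the 25696 probes, 11713 (45.6%) were detected on all 4 control arrays, 2216 on 1 to 3 and 11767 on none. Gene names were available for 13928 probes of 10153 genes, all of them probes detected on at least 1 of the 16 arrays. Of these genes, 8228 (81.0%) had a probe detected on all 4 control arrays, 1336 on some and 589 (5.8%) on none. That 81.0% is the background against which the lists below are read. A gene with no named probe is left out rather than called absent. Of the 670 genes on the lists, 455 had a named probe, and 360 of these (79.1%) were detected on all 4 arrays, 69 on some and 26 on none.

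The 30 brightest genes were mainly those of protein synthesis, the cytoskeleton and the blood. The brightest was Tuba1b, an alpha tubulin, with intensities of 66783.0, 65465.0, 66525.3 and 68044.0 on controls 1 to 4. Ribosomal protein genes made up 13 of the 30, led by Rplp1 with a mean of 65819 ± 2038 (SD, n = 4) and Rpl41 with 64259 ± 1389. Globin genes made up 4, namely Hbb-y (61530 ± 3898), Hbb-bh1 (60010 ± 6477), Hba-a1 (59017 ± 7469) and Hba-x (58755 ± 10107). Hbb-y, Hbb-bh1 and Hba-x are embryonic chains of primitive red cells, whereas Hba-a1 is used by embryonic and adult cells alike. The rest of the 30 held housekeeping genes such as Gapdh (59327 ± 3454), the nucleolar protein Npm1 (58215 ± 1711), the heat shock protein Hspa8 (57862 ± 4575) and the tubulin Tubb5 (55378 ± 1395).

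The 30 also held genes of secreted proteins. Mif, a cytokine, reached 64190 ± 1305. Mdk, the heparin-binding growth factor midkine, reached 58212 ± 1696. Igf2, the main growth-promoting insulin-like factor of the embryo, reached 54912 ± 1671. The actin-binding peptide Tmsb10 stood at 59124 ± 1881. In the whole order from Tuba1b to Hnrnpab (54261 ± 2946), all 29 neighbouring pairs differed by less than the larger of their SDs, so no step in it was resolved. The gene at rank 31 had a mean of 54220, and 10 probes with no gene name were brighter than the gene at rank 30. Within the 30, the SD was largest for Hba-x, the histone H2ac24 (54411 ± 8512), Hba-a1 and Hbb-bh1. Hba-x was at 64747.8, 43627.9, 63452.7 and 63189.9, so it was low on control 2 alone. Many ribosomal, tubulin, histone and globin genes have near-identical copies, and where the probes lie in the transcripts was not analysed here, so a signal may be shared between copies.

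Contractile protein genes ranged from near the top of the order of brightness, with Acta2, Myl4 and Myl2, to its lower part. Myh7 at rank 5054 and Tnni3 at rank 5998 lay in between, and Myl6b at rank 8165 and Actg2 at rank 8748 lay low. Cardiac isoform lists held 102 genes with a named probe, of which 82 (80.4%) were detected on all 4 arrays, 18 on some and 2 on none. Acta2, the smooth muscle actin that the early myocardium also uses, ranked 55 of the 10153 named genes. Its brightest probe had log2 signals of 14.99, 15.61, 15.09 and 15.60 on controls 1 to 4. Myl4, the atrial and embryonic essential light chain, ranked 62 with 15.13, 15.33, 14.99 and 15.44. Myl2, the regulatory light chain of ventricular muscle, ranked 86 with 14.99, 15.06, 14.85 and 15.00. The SDs of these probes were 0.33, 0.20 and 0.09 on the log2 scale, against a median of 0.22 over all probes. A dimmer probe of Acta2 varied more and was highest on control 4, at 13.25, 13.73, 12.98 and 14.56.

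The brightest probe of the cardiac actin Actc1 was at 14.23, 14.94, 14.95 and 14.82. Its dimmer probe had another order, at 13.03, 13.43, 12.38 and 13.75, lowest on control 3 and highest on control 4. Myl7, the regulatory light chain of atrial muscle that is found throughout the early tube, was at 14.31, 14.58, 13.91 and 15.42. It was highest on control 4 and lowest on control 3, with an SD of 0.64. The light chain Myl3 of ventricular and slow muscle varied less, at 14.26, 14.04, 14.15 and 14.54. Of the 10 myosin light chain genes with a named probe, 9 were detected on all 4 arrays. The exception was Myl6b, with 5.93 to 7.93, detected on control 4 only.

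Promoters of Actc1 and Myl7 are shown because they are core genes of the cardiomyocyte list and hold the CArG box, the site bound by serum response factor, close to the start of transcription. Each run covers 250 bases before and 50 bases from the start (RefSeq, GRCm38.p6), read 5′ to 3′ on the strand of the gene, with the CArG box in capitals.
Actc1 (chr2:114052826-114053125, minus strand): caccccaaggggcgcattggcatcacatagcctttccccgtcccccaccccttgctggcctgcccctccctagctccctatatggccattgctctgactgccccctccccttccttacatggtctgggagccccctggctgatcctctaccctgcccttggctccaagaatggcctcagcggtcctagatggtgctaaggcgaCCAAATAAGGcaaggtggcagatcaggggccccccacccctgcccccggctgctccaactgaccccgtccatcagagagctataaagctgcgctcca
Myl7 (chr11:5898733-5899032, minus strand): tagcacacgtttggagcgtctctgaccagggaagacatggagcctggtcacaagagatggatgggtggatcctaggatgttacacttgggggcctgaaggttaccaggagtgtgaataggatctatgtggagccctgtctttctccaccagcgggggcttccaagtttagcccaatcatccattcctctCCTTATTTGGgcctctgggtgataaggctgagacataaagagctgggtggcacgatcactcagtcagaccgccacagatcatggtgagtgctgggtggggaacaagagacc
Across the 15 cardiomyocyte list genes with a listed promoter, 3 (20%) held a CArG box on this search, namely Actc1, Myl7 and Myl3, against 141 of 8193 genes named on the array (1.7%). The brightest probe of Srf, the gene for the factor, had log2 signals of 11.61, 11.94, 11.61 and 11.48, with no array far from the rest. Its dimmer probe was at 7.54, 7.16, 7.32 and 8.35, highest on control 4. A match describes letters in this window and does not show binding.

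**Figure D1:**
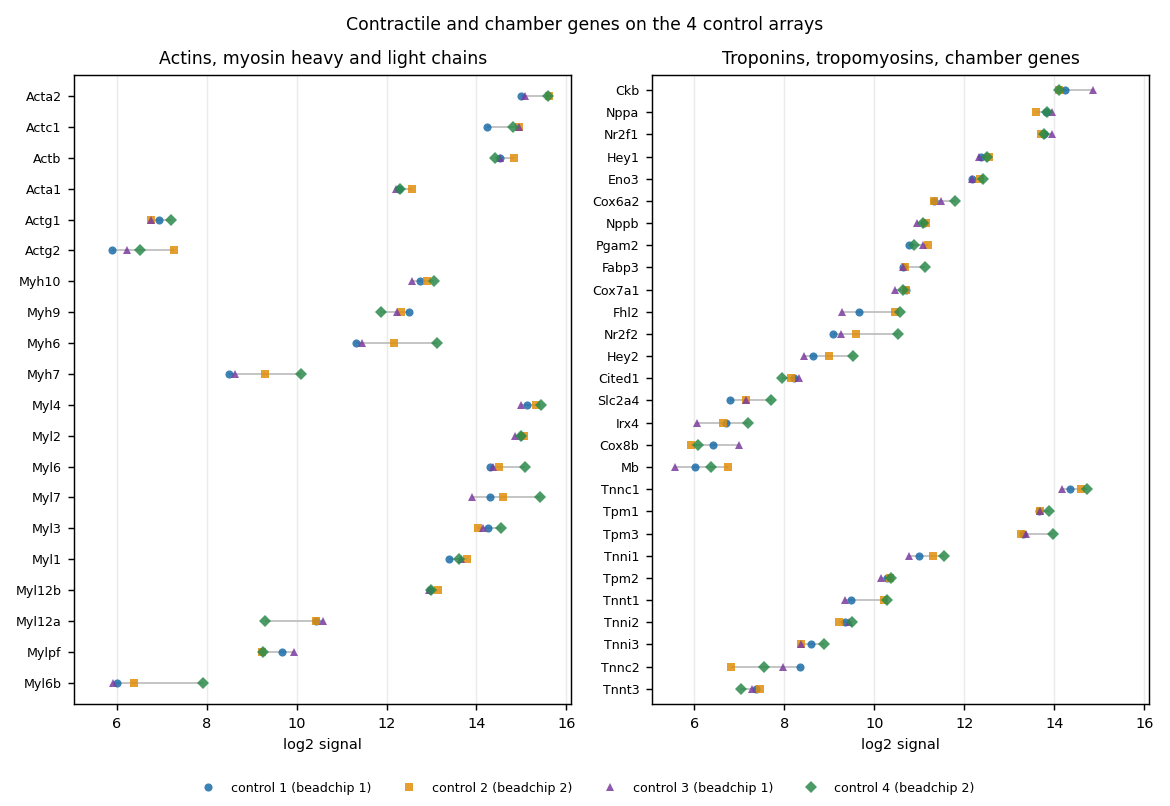
Log2 signal (horizontal axis) of the contractile and chamber genes (vertical axis) on the 4 control arrays, 1 point per array, with a grey line from the lowest to the highest array. Myl2 and Myl12b lie within narrow ranges, whereas Myh6, Myh7 and Myl7 reach their highest signal on control 4.

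Both alpha and beta cardiac myosin heavy chains were detected on all 4 arrays. Myh6, the alpha chain, was at 11.32, 12.17, 11.45 and 13.13, and its second probe gave 7.87, 8.63, 7.64 and 10.33. Myh7, the beta chain of embryonic ventricle, was at 8.49, 9.29, 8.64 and 10.09. Both genes were low on controls 1 and 3 and highest on control 4, as was the second probe of Myh6. The non-muscle heavy chains Myh10 (12.82 ± 0.21) and Myh9 (12.24 ± 0.27) varied less.

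All 10 troponin and tropomyosin genes with a named probe were detected on all 4 arrays. Tnnc1, the calcium-binding troponin of heart and slow muscle, had the highest signal of the 10, with a log2 mean of 14.46 ± 0.25. Slow skeletal troponin I, Tnni1, the isoform of the embryonic heart, was at 10.99, 11.31, 10.76 and 11.54. Tnni3, the adult cardiac isoform, was at 8.59, 8.36, 8.36 and 8.88, so its probe was also above background on every array. Fast muscle isoforms were detected as well, including Tnni2 (9.38 ± 0.12), Tnnc2 (7.67 ± 0.65) and Tnnt3 (7.29 ± 0.18). Tpm1 (13.73 ± 0.10) and Tpm3 (13.47 ± 0.33) were the brightest tropomyosins.

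Thick filament, Z-disc and cytoskeletal genes of muscle were detected on all 4 arrays for 19 of 22 genes. The brightest probe of the muscle LIM protein gene Csrp3 was at 13.07, 13.09, 13.06 and 13.03, whereas its dimmest was at 10.35, 10.88, 10.22 and 11.46. The first was even and the second was highest on control 4. Titin, Ttn, was among the least steady, at 7.94, 9.58, 7.96 and 9.60. Its values were alike within each beadchip and did not overlap between the beadchips, with a difference (beadchip 2 minus beadchip 1) of 1.64 and an adjusted p of 0.105 in limma. The Z-disc and M-band genes Xirp1 (1.29, limma adjusted p = 0.362) and Myom1 (1.20, limma adjusted p = 0.362) were also higher on beadchip 2, and none of the 3 passed the test. Ldb3 was detected on 3 arrays, and Myoz2 and Mybpc1 on 1 each.

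Calcium handling genes were detected on all 4 arrays for 10 of 18, a share of 55.6% against 81.0% of all named genes. Atp2a2, the calcium pump of the sarcoplasmic reticulum, was bright at 13.21, 14.00, 13.12 and 14.18. The sodium-calcium exchanger Slc8a1 was at 10.23, 10.89, 10.19 and 11.80. Calreticulin, Calr, was even on controls 1 to 3 (12.30, 12.28 and 12.33) and higher on control 4 (13.99). The ryanodine receptor Ryr2, the calcium release channel of mature muscle, was at 5.60, 5.41, 5.45 and 7.44 and was detected on control 4 only. Phospholamban, Pln, was detected on 3 arrays (7.20, 6.16, 7.39 and 7.56), and the junctional protein Jph1 on none. The probes of Ryr2 and Pln therefore lay near the detection limit, whereas those of the pump and the exchanger did not.

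Ion channel genes of pacemaker, sodium and potassium currents were the least often detected cardiac list. Only Kcnh2 (9.73, 9.61, 9.84 and 9.76) and Kcnj2 (7.37, 7.19, 7.90 and 7.29) of 6 genes were detected on all 4 arrays. Hcn3 and Kcne1 were detected on 3 arrays, Kcna5 on 2 and Hcn2 on none. Connexins, the gap junction proteins, were detected on all 4 arrays for all 8 genes. Gja1 was the brightest and steadiest, at 14.41, 14.43, 14.30 and 14.32. Gjc1 (10.57 ± 0.16) and Gja5 (9.76 ± 0.15), which the embryonic myocardium also uses, followed.

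Natriuretic peptides and chamber genes were detected on all 4 arrays for 15 of 18. Nppa, a marker of chamber myocardium, was at 13.81, 13.60, 13.94 and 13.84, and Nppb was at 11.10, 11.15, 10.94 and 11.08. The atrial regulator Nr2f1 (13.80 ± 0.10) and the Notch effector Hey1 (12.44 ± 0.10), which marks atrial myocardium, were equally steady. Nr2f2, another atrial regulator, was at 9.61 ± 0.64, and Hey2, which marks ventricular myocardium, at 8.63, 8.98, 8.44 and 9.53. Both were highest on control 4, where Nr2f2 reached 10.52. The ventricular factor Irx4 was detected on 3 arrays (6.70, 6.63, 6.06 and 7.19) and myoglobin, Mb, on 2.

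**Figure D2:**
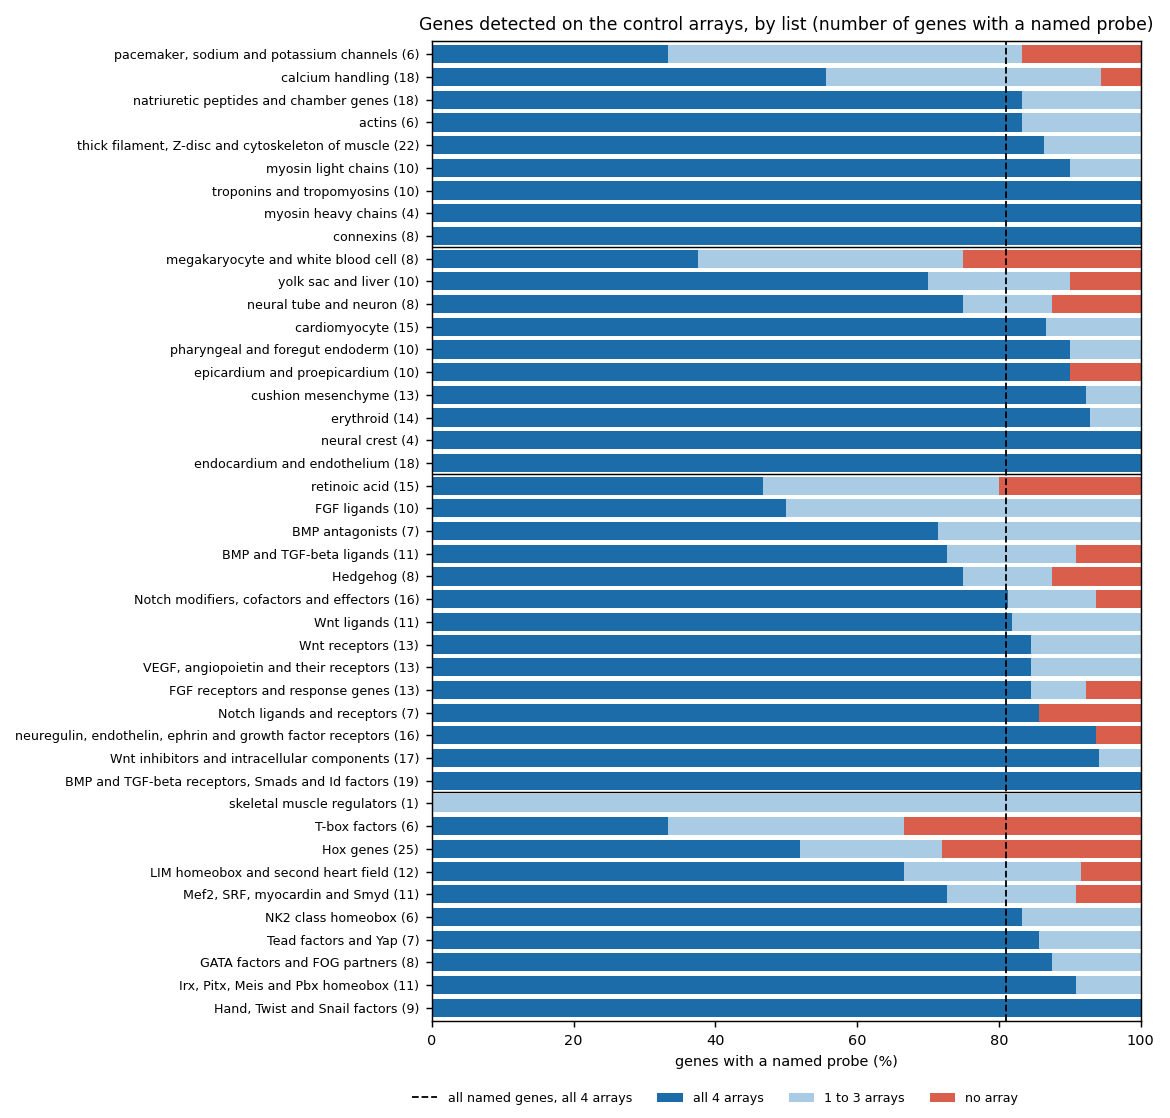
Share of the genes with a named probe (horizontal axis, percent) in each list (vertical axis, with the number of such genes) that were detected on all 4, on 1 to 3 or on no control array; the dashed line marks the 81.0% of all named genes detected on all 4, and black lines part the families. T-box factors, channels, calcium handling, retinoic acid, FGF ligands and Hox genes lie left of the line.

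Transcription factor lists held 96 genes with a named probe, of which 68 (70.8%) were detected on all 4 arrays, 17 on some and 11 on none. The core cardiac factors differed in how steadily they were measured. Nkx2-5, the homeobox factor at the head of the myocardial programme, was at 9.45, 10.19, 9.45 and 11.24. Gata4 was at 7.69, 7.61, 7.08 and 8.01, Gata5 at 8.13, 8.43, 7.44 and 8.67, and Gata6 at 11.98, 11.92, 11.75 and 11.80. Gata6 was thus even on all 4 arrays, whereas Nkx2-5, Gata4 and Gata5 were each highest on control 4.

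Hand2, a bHLH factor of the right ventricle and outflow tract, was at 8.21, 7.97, 8.02 and 10.39. Controls 1 to 3 lay close together, and control 4 stood well above the highest of them. Hand1, its relative in the left ventricle and outflow tract, showed a smaller gap (7.45, 7.30, 7.03 and 8.49). The mesenchymal factors Twist1 (12.35 ± 0.39) and Snai1 (10.23 ± 0.48) and the FOG cofactors Zfpm1 (12.88 ± 0.50) and Zfpm2 (8.92 ± 0.18) were detected throughout.

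Few T-box factors were detected. Only Tbx3 (9.94, 9.86, 9.92 and 9.75) and Tbx2 (8.22, 7.71, 8.32 and 8.50), repressors of the chamber programme in the atrioventricular canal and outflow tract, of 6 genes were detected on all 4 arrays. Tbx5, of the atria and left ventricle, was at 6.06, 5.86, 6.22 and 6.42, and Tbx20, of the whole heart, at 5.92, 6.31, 6.06 and 6.96. Each was detected on 1 array. Both factors are known to be made by the heart at this stage, and a probe below the threshold does not show that a transcript is absent. Tbx18 and Tbx6 were detected on none.

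Second heart field and LIM homeobox genes were detected on all 4 arrays for 8 of 12 (66.7%), against 81.0% of all named genes. Isl1, the best known marker of that field, was at 11.96, 11.99, 11.85 and 11.78, and Foxc1 at 10.46, 10.52, 10.41 and 10.64. Foxc2 (9.42 ± 0.27), Foxp1 (9.38 ± 0.08) and Foxf1 (8.54 ± 0.09) followed. Lhx8, Six4 and Foxh1 were detected on some arrays, and Lhx9 on none. Muscle cofactors were detected as well, namely Smarcd3 (10.26 ± 0.37), Mef2c (9.85 ± 0.43), Myocd (9.08 ± 0.58) and Smyd1 (8.08 ± 0.27), whereas Mef2b was detected on none. The homeobox cofactors Meis2 (13.62 ± 0.10) and Meis1 (13.07 ± 0.12) and the Hippo pathway factor Tead2 (14.23 ± 0.14) had the highest signals within the transcription factor lists.

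Hox genes, which give cells their position along the body axis, were detected on all 4 arrays for 13 of 25 genes, on some for 5 and on none for 7. The members with the highest signals were those of anterior groups, Hoxa2 (11.29 ± 0.16), Hoxb2 (11.24 ± 0.34), Hoxb5 (10.42 ± 0.57) and Hoxd4 (10.11 ± 0.42). The members not detected on any control array were Hoxd1, Hoxa7, Hoxd8, Hoxa9, Hoxb9, Hoxc9 and Hoxd9. Posterior Hoxc10 (6.91 ± 0.30) and Hoxa13 (6.69 ± 0.32) were detected on all 4 at signals near the limit. The pattern by array was uneven, since 13 of the 16 Hox genes detected on at least 2 arrays were highest on control 3, where 24.6% of all named genes were highest. Hoxa5, for instance, was at 10.01, 10.14, 10.57 and 8.91, and Hoxb7 at 7.38, 6.85, 7.61 and 5.44.

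Signalling lists held 176 genes with a named probe, of which 142 (80.7%) were detected on all 4 arrays, 25 on some and 9 on none. Among Notch receptors, Notch3 was at 10.50, 10.53, 10.32 and 11.45, Notch4 at 9.95, 10.09, 10.28 and 9.60, and Notch1 at 9.49, 9.85, 9.88 and 9.61. Among ligands, Dll1 (8.91 ± 0.32), Jag1 (7.68 ± 0.54) and Jag2 (7.51 ± 0.75) were detected on all 4 arrays and Dll3 on none. Of the effectors, Hey1 (12.44 ± 0.10), the feedback regulator Nrarp (11.63 ± 0.34) and Hes1 (10.30 ± 0.15) had clear signals, and Maml3 was not detected on any array.

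In the Wnt pathway 9 of 11 ligands, 11 of 13 receptors and 16 of 17 inhibitors and intracellular components were detected on all 4 arrays. Wnt5a was at 11.20, 11.25, 10.45 and 11.55, and Wnt2 at 10.48, 10.90, 10.18 and 10.57. Wnt3a (10.28 ± 0.24) and Wnt6 (9.90 ± 0.48) followed. The receptors Ryk (12.52 ± 0.18) and Fzd7 (12.13 ± 0.30) and the coactivator Ctnnb1, beta-catenin (13.99 ± 0.10), were detected at clear signals on all 4 arrays. The secreted inhibitor Sfrp1 was even on 3 arrays (9.83, 9.81 and 9.72) and higher on control 3 (11.60). The kinase Gsk3a was even on controls 1 to 3 (7.89, 7.92 and 7.94) and higher on control 4 (10.32).

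BMP ligands that pattern the heart were detected, with Bmp4, of the outflow tract and its surroundings, at 11.23, 11.15, 11.49 and 11.79, and Bmp7 at 9.81, 9.56, 9.30 and 10.02. All 19 receptors, Smads and Id genes with a named probe were detected on all 4 arrays, among them Tgfbr1 (13.76 ± 0.14), Smad4 (13.57 ± 0.12), Bmpr1a (11.70 ± 0.07) and Id1 (12.27 ± 0.11). The antagonist Twsg1 was at 12.92, 12.66, 12.48 and 12.82. The hormone subunit Inha was detected on none.

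FGF ligands were detected on all 4 arrays for 5 of 10 genes. Fgf8, a ligand of the second heart field and pharynx, was at 10.39, 10.23, 9.89 and 10.53, and Fgf10, a marker of the second heart field, at 9.49, 9.36, 8.73 and 9.23. The response gene Dusp6 was bright at 13.36, 12.93, 13.10 and 13.28, whereas Spry1 was detected on none. Retinoic acid genes were detected on all 4 arrays for 7 of 15, led by the binding proteins Crabp1 (12.80 ± 0.27) and Crabp2 (12.68 ± 0.26). Aldh1a2, the enzyme that makes retinoic acid in the embryo, was at 7.91, 8.32, 7.91 and 7.56, and Aldh1a1, Aldh1a3 and Rxrg were detected on none.

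Growth factor receptors and angiogenic genes were widely detected. Below Igf2 in their list stood Pdgfra (11.83 ± 0.08), Igf2r (11.97 ± 0.37) and Ednrb (11.79 ± 0.25), and Nrg1, the endocardial neuregulin that drives trabeculation, was detected on none (5.76, 6.19, 5.49 and 5.67). Vegfb (12.32 ± 0.10), the endothelial receptor Tek (10.95 ± 0.28) and Vegfa (10.93 ± 0.19) were detected on all 4 arrays. In the Hedgehog list, Smo was at 11.44 ± 0.10 and Shh, a ligand of the pharyngeal endoderm, at 9.86, 10.01, 9.76 and 10.62, whereas Ihh was detected on none.

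Markers of the labelled tissue were checked, and their counts are read against the 81.0% of all named genes detected on all 4 arrays. A count near that share does not by itself mark a cell type. Of the 15 cardiomyocyte markers with a named probe, 13 (86.7%) were detected on all 4 arrays, with a median gene percentile of 79.0 among all named genes. All 18 markers of endocardium and endothelium were detected on all 4, led by Ramp2 (12.45 ± 0.36) and Egfl7 (12.17 ± 0.20). Of the 13 cushion mesenchyme markers, 12 (92.3%) were detected on all 4, among them Msx1 (12.15 ± 0.19), Has2 (10.34 ± 0.40) and Sox9 (9.38 ± 0.26). The matrix gene Vcan was detected on 3 arrays. Of the epicardial and proepicardial markers, 9 of 10 were detected on all 4, among them Wt1, which was at 10.61, 9.67, 10.37 and 9.37.

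Some markers of cells outside the heart were also detected on every array, with the same 81.0% of all named genes as background. All 4 neural crest genes were detected on all 4 arrays, with Ets1 at 12.07 ± 0.15 and Tfap2a at 10.62 ± 0.18. Pharyngeal and foregut endoderm markers were detected on all 4 for 9 of 10 genes, among them Cldn6 (12.59 ± 0.33), Cdh1 (9.94 ± 0.28) and Foxe1 (9.73 ± 0.36). Neural markers were detected on all 4 for 6 of 8, with Nes at 11.44 ± 0.24, whereas the neuronal tubulin Tubb3 was detected on none. White blood cell and megakaryocyte markers were detected on all 4 for only 3 of 8 (Laptm5, Pf4 and Itga2b), and Fcgr3 and Gp1bb on none. Several of these genes, such as Shh and Ets1, are shared with other tissues, so a detected marker does not count cells. In whole tissue, fewer cells of a type and less RNA per cell cannot be told apart.

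Levels of some marker lists differed between the control arrays more than the median gene did. The erythroid list of 14 genes averaged 0.13, -0.75, 0.85 and -0.22 from each gene's mean on controls 1 to 4, on the log2 scale, against 0.01, 0.01, 0.01 and -0.04 for all 8994 named genes detected on at least 2 arrays. It was highest on control 3 for 12 of 14 genes and lowest on control 2 for 11. Of all named genes, 24.6% were highest on control 3 and 20.7% lowest on control 2. The list median SD was 0.82 against 0.22 for all named genes. Other lists were also highest on control 3, namely the 4 megakaryocyte and white blood cell genes (0.11, -0.20, 0.54 and -0.45) and the 7 neural genes (-0.07, -0.11, 0.34 and -0.16), and their part in the erythroid values was not tested.

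Individual red cell genes showed the high level on control 3. Alas2, the first enzyme of haem synthesis in red cells, was at 12.40, 10.73, 13.43 and 11.61. Hemgn, an erythroid nuclear protein, was at 8.89, 7.55, 10.18 and 7.58. Klf1, a master regulator of red cell genes, was at 10.54, 9.77, 11.62 and 9.50. Control 3 was highest for all 3, and controls 2 and 4 were lowest. Slc4a1, the anion exchanger of the red cell membrane, was at 13.77, 12.56, 14.65 and 12.72, and the 3 probes of Rhag, a membrane channel, were likewise highest on control 3 and lowest on control 2, with 9.14, 7.38, 10.16 and 8.45 for the brightest. The erythropoietin receptor Epor was at 8.39, 7.09, 9.06 and 7.62. The bright embryonic globins moved less, as Hbb-y was at 15.95, 15.74, 15.90 and 15.85, at the top of the intensity range.

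Promoters of 5 of these genes that moved together are shown with the GATA motif in capitals. The motif was searched as AGATAA or TGATAA, or their reverse complements TTATCT and TTATCA, in 250 bases before and 50 bases from the start (RefSeq, GRCm38.p6, read 5′ to 3′ on the strand of the gene).
Alas2 (chrX:150547167-150547466, plus strand): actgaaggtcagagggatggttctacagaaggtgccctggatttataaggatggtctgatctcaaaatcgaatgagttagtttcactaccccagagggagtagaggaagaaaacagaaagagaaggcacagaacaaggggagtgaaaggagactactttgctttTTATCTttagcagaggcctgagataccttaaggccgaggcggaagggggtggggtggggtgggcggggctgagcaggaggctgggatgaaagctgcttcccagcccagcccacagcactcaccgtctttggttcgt
Klf1 (chr8:84901732-84902031, plus strand): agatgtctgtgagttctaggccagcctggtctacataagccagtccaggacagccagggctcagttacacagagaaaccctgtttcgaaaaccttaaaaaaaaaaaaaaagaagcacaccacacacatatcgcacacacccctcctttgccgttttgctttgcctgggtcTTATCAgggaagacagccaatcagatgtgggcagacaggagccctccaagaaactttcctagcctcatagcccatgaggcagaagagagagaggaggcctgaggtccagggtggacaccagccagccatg
Rhag (chr17:40810899-40811198, plus strand): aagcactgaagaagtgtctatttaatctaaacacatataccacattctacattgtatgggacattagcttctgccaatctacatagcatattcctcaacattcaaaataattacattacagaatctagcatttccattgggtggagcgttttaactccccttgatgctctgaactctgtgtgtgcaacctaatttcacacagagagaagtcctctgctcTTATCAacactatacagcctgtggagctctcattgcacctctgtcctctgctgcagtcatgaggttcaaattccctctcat
Epor (chr9:21963527-21963826, minus strand): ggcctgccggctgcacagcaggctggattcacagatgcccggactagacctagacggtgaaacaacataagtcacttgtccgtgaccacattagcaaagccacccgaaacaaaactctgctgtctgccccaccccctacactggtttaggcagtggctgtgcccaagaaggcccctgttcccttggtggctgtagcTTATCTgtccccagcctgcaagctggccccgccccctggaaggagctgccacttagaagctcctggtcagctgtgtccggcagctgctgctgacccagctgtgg
Hemgn (chr4:46404134-46404433, minus strand): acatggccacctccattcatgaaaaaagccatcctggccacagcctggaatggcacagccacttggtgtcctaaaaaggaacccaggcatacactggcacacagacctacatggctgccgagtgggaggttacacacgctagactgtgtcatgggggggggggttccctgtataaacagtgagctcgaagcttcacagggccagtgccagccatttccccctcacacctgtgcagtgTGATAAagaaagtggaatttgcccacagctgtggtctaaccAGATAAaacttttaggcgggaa
Of the 14 erythroid genes, 10 had a listed promoter and 9 of these (90%) held the motif. It was held by 1057 of 8193 genes named on the array (12.9%) and 5664 of all 27025 genes with a promoter (21.0%). On the cardiomyocyte list, 4 of 15 genes (26.7%) held it. The erythroid list was made of known red cell genes, so its share does not bear on which genes moved between arrays. The motif is the core of the site of GATA factors, of which Gata1 is the erythroid one. Gata1, itself on the erythroid list, lay near the detection limit, at 6.66, 6.02, 7.59 and 6.73. It was highest on control 3 and lowest on control 2, and any part of it in the levels of the other genes was not tested. Hbb-y, Hba-a1 and Hba-x also held the motif, and their SDs were 0.09, 0.17 and 0.26. A match in these letters is a description and not a site shown to be bound.

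The yolk sac and liver list ran the other way on control 3. Its 9 genes averaged 0.31, 0.14, -1.01 and 0.55, and 6 of 9 were lowest on control 3, where 23.3% of all named genes were lowest. Ttr, a thyroid hormone carrier made by yolk sac endoderm and liver, was at 10.57, 10.74 and 7.49 on controls 1 to 3 and at 11 on control 4. Apoa1, a lipoprotein of the same cells, was at 8.04, 9.38, 6.69 and 9.78. Afp, the fetal serum protein, was at 8.15, 7.27, 5.90 and 7.61. The gut peptide Pyy of the foregut endoderm list was at 8.28, 9.86, 6.58 and 9.39. All 4 genes were lowest on control 3, and the order of the other arrays differed between them, since Afp was highest on control 1.

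The 14 cardiomyocyte genes averaged -0.28, 0.03, -0.27 and 0.51, and 11 of 14 were highest on control 4, where 28.9% of all named genes were highest. Hox genes ran against this, with 0.11, -0.12, 0.45 and -0.43, and 10 of 16 were lowest on control 4, where 40.6% of all named genes were lowest. The mean over the 18 endocardial and endothelial genes was 0.01, 0.09, -0.07 and -0.03, while single members moved both ways, with Tal1 at 9.53, 9.06, 10.37 and 9.13 and Cdh5 at 8.07, 8.31, 7.46 and 8.54. The median SD of that list was 0.24. Pharyngeal and foregut endoderm genes averaged -0.05, 0.19, -0.41 and 0.27. Controls 3 and 4 thus lay at opposite ends for the Hox, endoderm and yolk sac lists, and the cardiomyocyte mean was about as low on control 1 as on control 3. The labels give no measure of how the hearts were dissected, and the part of neighbouring tissue in these differences was not tested.

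**Figure D3:**
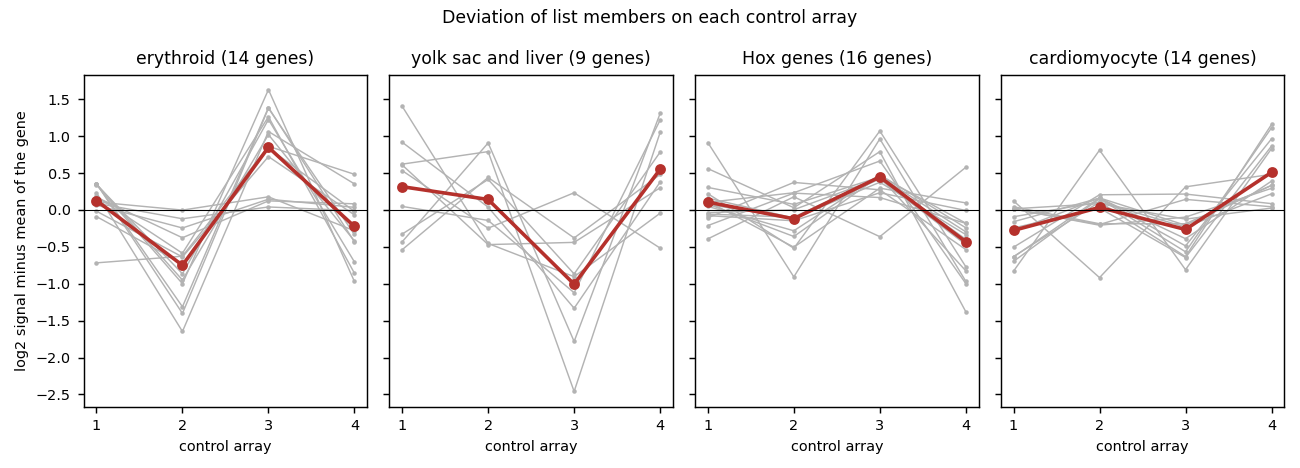
Log2 signal minus the mean of the gene over the 4 arrays (vertical axis) on control arrays 1 to 4 (horizontal axis) for the genes of 4 lists detected on at least 2 arrays; grey lines are genes and the red line is the list mean. The erythroid mean runs from -0.75 on control 2 to 0.85 on control 3, and the yolk sac and liver mean is lowest on control 3 at -1.01.

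Sex-linked transcripts separated 1 control array from the rest. Xist, the RNA that silences an X chromosome in female cells, was at 9.58, 6.24, 6.05 and 6.14, and its second probe at 9.24, 5.82, 5.90 and 5.76. The Y-linked Eif2s3y was at 5.21, 10.69, 10.17 and 10.94, and Kdm5d at 5.47, 9.31, 8.74 and 8.76. Control 1 therefore had the only detected Xist signal and the only undetected Eif2s3y and Kdm5d signals. The Uty probe was detected on all 4 arrays, at 7.35, 7.94, 8.12 and 8.30, and did not show this gap.

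Among the 12935 probes detected on at least 2 control arrays, the median SD was 0.22 on the log2 scale, the 95th percentile 0.56 and the 99th percentile 0.93. The SD was over 1 for 98 probes (0.758%). In these 98, the array farthest from the other 3 was control 3 for 48, control 4 for 27, control 1 for 12 and control 2 for 11. The 30 most variable named genes had SDs of 3.80 down to 1.31, with H4c9 at 1.314 just inside and Kel at 1.312 just outside. These SDs chose the genes and so are given as a description.

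The most variable gene was Zfp330, a zinc finger protein, at 5.18, 11.74, 5.17 and 11.79. This probe of it was undetected on both arrays of beadchip 1 and bright on both arrays of beadchip 2. Mak16, a factor of ribosome assembly, was at 11.95, 10.99, 6.48 and 12.06, and the mitochondrial import receptor Tomm22 at 12.73, 12.70, 9.09 and 13.06. Both were low on control 3 alone. The nucleolar protein Wdr46 was at 6.97, 6.54, 6.64 and 10.24, high on control 4 alone. In 19 of the 30 genes the arrays fell into a low and a high set parted by at least 2 on the log2 scale.

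On chromosome 2 lay 6 of the 30 genes (20%), against 8.2% of the named genes detected on at least 2 arrays. Lrrc57 was at 5.37, 9.15, 10.43 and 5.39, and the spliceosome helicase gene Aqr at 5.63, 9.62, 10.48 and 5.65. Mkks, a chaperonin-like protein, was at 5.72, 9.64, 8.51 and 6.63, and the microtubule-associated Rmdn3 at 7.91, 9.77, 10.56 and 6.98. In these 4 genes controls 2 and 3 were high and controls 1 and 4 were low. The others on the chromosome had other orders, with Tmem87a at 9.93, 8.76, 5.92 and 9.15 and Snx5 at 7.73, 8.88, 7.25 and 5.59. Chromosomes 8 (Zfp330, Mak16 and Prdx2) and 15 (Tomm22, Ncf4 and Smarcd1) held 3 of the 30 each. Of the named genes detected on at least 2 arrays, 5.3% lay on chromosome 8 and 4.3% on chromosome 15. Whether 3 of 30 exceeds these shares was not tested.

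**Figure D4:**
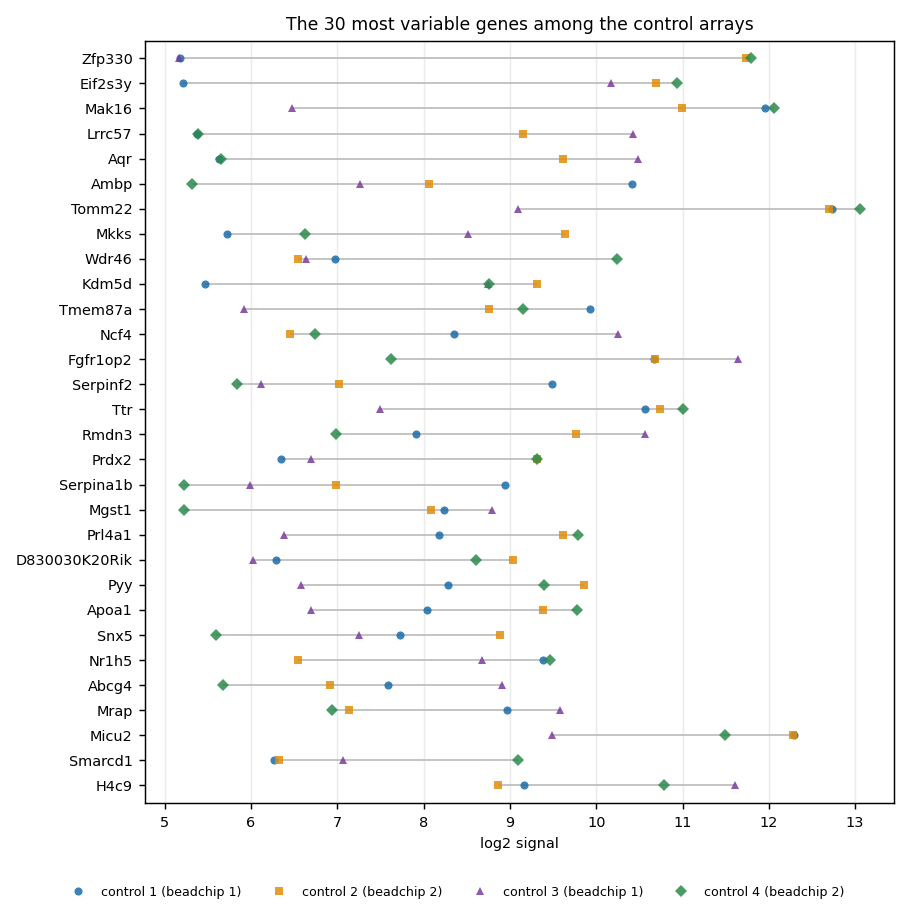
Log2 signal (horizontal axis) of the 30 most variable genes (vertical axis, most variable at the top) on the 4 control arrays, 1 point per array, with a grey line from the lowest to the highest array. Zfp330 splits by beadchip, Lrrc57 and Aqr put controls 1 and 4 together at the low end, and Mak16 and Tomm22 are low on control 3 alone.

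Some of these genes had a second probe with little spread. Each gene was taken by its most variable probe, so any other probe was steadier by that choice. Of the 30 genes, 12 had another probe detected on at least 2 arrays, and in 8 of them every other probe had an SD under 0.5. Over all 12935 probes, 969 had an SD over 0.5, so that steadiness is the usual case. The second probe of Zfp330 was at 11.28, 11.70, 11.30 and 12.08, near the high state of the first on all 4 arrays. The second probe of Aqr was at 8.84, 9.34, 8.85 and 9.41, and that of Mak16 at 10.64, 10.99, 10.71 and 10.83. The low and high states of these 3 genes were therefore seen by 1 probe and not by the other. In Mkks, Fgfr1op2, Rmdn3, Mgst1 and D830030K20Rik the second probe had SDs of 0.18, 0.24, 0.32, 0.30 and 0.13. Where the probes lie in these transcripts was not analysed here.

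In other genes the probes moved together. The 2 probes of Micu2, a regulator of the mitochondrial calcium uniporter, were at 12.29, 12.28, 9.49 and 11.49 and at 10.93, 10.74, 8.28 and 10.25, both lowest on control 3. The 2 probes of the nuclear receptor gene Nr1h5 were both lowest on control 2, at 6.54 and 6.59. All 3 probes of Smarcd1, a subunit of the BAF chromatin remodeller, were highest on control 4, where the first stood at 9.09 against 6.26 to 7.06 on the others. In Prdx2, a peroxidase of red cells, a second probe (9.44, 10.77, 9.68 and 10.98) followed the first (6.35, 9.31, 6.70 and 9.31), and another was bright and even (15.34 ± 0.17).

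**Figure D5:**
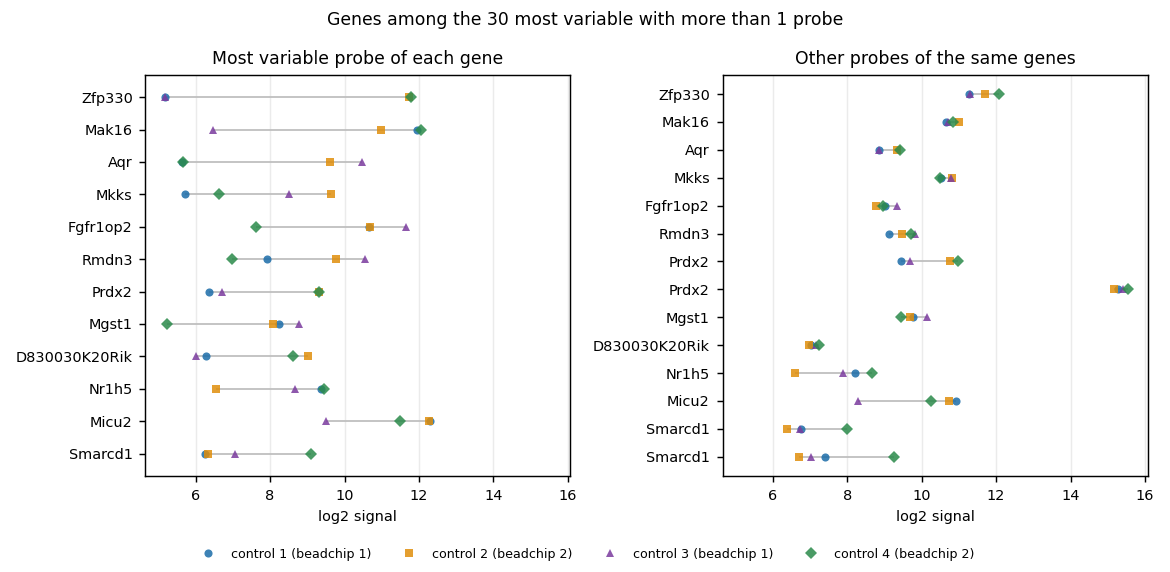
Log2 signal (horizontal axis) on the 4 control arrays for the 12 genes among the 30 most variable that have more than 1 probe detected on at least 2 arrays (vertical axis), with the most variable probe at left and the other probes at right. The second probes of Zfp330, Mak16 and Aqr stay within narrow ranges, whereas those of Micu2 and Smarcd1 spread as the first ones do.

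Among the 30 were 3 genes of serum protease inhibitors. Ambp, the precursor of a serum protease inhibitor, was at 10.41, 8.06, 7.26 and 5.32. Serpinf2, which inhibits plasmin, was at 9.49, 7.02, 6.11 and 5.84, and Serpina1b, a relative of antitrypsin, at 8.94, 6.98, 5.99 and 5.22. All 3 had the same order, highest on control 1 and lowest on control 4. Ttr and Apoa1, also among the 30, were instead lowest on control 3.

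The variability was set against that of the other genotypes, which the choice of genes had not used. Within the 4 mutant genotypes (12 arrays), the median within-genotype SD of the 30 genes was 1.35, against 0.21 for all 12935 probes. Of the 30 genes, 29 lay in the top 10% of all probes by this SD and 21 in the top 1%. Zfp330 had a within-genotype SD of 3.08, Eif2s3y of 3.47, Mak16 of 2.41 and Prl4a1, a prolactin relative of the placenta, of 2.36. Smarcd1 was the exception, with 0.36 at the percentile 86.1, and it was high on control 4 alone. Its probe was detected on only 3 of the 12 mutant arrays, so the small SD there does not show that the gene was steady.

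A limma fit tested beadchip 2 against beadchip 1 within the controls, with p-values adjusted by Benjamini-Hochberg over 12935 probes. Of these, 6 (0.0464%) passed an adjusted p of 0.05, with 3 higher and 3 lower on beadchip 2, and 1133 (8.76%) had an unadjusted p under 0.05. The count was 1 where detection on all 4 arrays was required, 43 without control 1, 5 without control 3, and 0 without control 2 or without control 4. Of the 6 probes, 4 were not detected on either array of 1 beadchip and entered the fit only through the other, so their differences are lower bounds, set against the lowest detected signal of each array. The Zfp330 probe was at least 38.3-fold higher on beadchip 2 (measured log2 means 11.76 and 5.17). The other probe of Zfp330 did not show this, at 11.28, 11.70, 11.30 and 12.08 on controls 1 to 4. The D830030K20Rik probe was at least 4.97-fold higher on beadchip 2 (8.82 and 6.16), whereas its other probe was at 7.02, 6.96, 7.17 and 7.25. The Prdx2 probe, detected on 3 arrays, was higher on beadchip 2 by 2.78 ± 0.20 on the log2 scale (SE, limma adjusted p = 0.0208). The 3 lower ones were probes with no gene name, of which 2 were at least 14.8-fold and 12.3-fold lower and the other differed by -3.30. With 2 arrays on each beadchip, the beadchip and the hearts on it cannot be told apart within the controls.

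The same fit within the mutant genotypes had genotype as a term. It passed 1 of 12935 probes (0.00773%), the zinc finger gene Zcchc9 at -1.02 ± 0.12 (limma adjusted p = 0.048). An unadjusted p under 0.05 was found for 2076 probes (16%), a larger share than the 8.76% in the controls. The mutant fit used 12 arrays and the control fit 4, so these shares do not compare the size of the beadchip effects. None of the 6 probes of the controls passed in the mutant fit. Zfp330 was at -1.56 ± 1.69 (SE, limma adjusted p = 0.685), and Prdx2 and D830030K20Rik were at 0.25 and 1.15. A test of the difference of the beadchip effects between control and mutant arrays, added after seeing the data, passed 0 of 12935 probes (0.0%) in limma, with 549 (4.24%) at an unadjusted p under 0.05. For Zfp330 that difference did not pass (limma adjusted p = 0.975). It reuses the control values that singled out this probe, which was undetected on both control arrays of beadchip 1, so it adds no support. Ntn5, a netrin relative, was lower on beadchip 2 in both sets without passing in either, at -1.69 (limma adjusted p = 0.107) in the controls and -0.88 (limma adjusted p = 0.0575) in the mutants.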

How the data were processed

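RNA from whole hearts was labelled as biotin cRNA with a TotalPrep kit and hybridised to Illumina beadchips, per the labels' protocols. The deposited table gives an average bead intensity per probe and array and a detection p-value, per the file headers, and the submitters' processing notes name BeadStudio, with its settings not given in the sources used here. A deposited table of normalised intensity values from the authors, holding the 14788 probes detected on at least 1 of 16 arrays, was used only as an alternative. Columns of other series numbered 0. Gene symbols came from the platform annotation of those probes, of which 13928 had 1 symbol, 0 several and 860 none. Gene symbols were matched to RefSeq by gene ID for 13923 probes.

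Background was corrected with limma 3.58.1 (normexp from the detection p-values, offset 16) in R 4.3.3, followed by quantile normalisation over all 16 arrays and log2. A probe was kept for the spread and the beadchip fits where detected (p under 0.05) on at least 2 control arrays. A gene counts as detected where any of its probes is, and its values are those of the probe with the highest mean intensity. The beadchip fits used limma with eBayes, were two-sided, and were tested on simulated arrays of 12935 probes: in the controls, differences of 1 on the log2 scale were recovered for 44% of 50 changed probes and differences of 2 for 100%, and in the mutant arrays for 86% and 100%. Precision is limited by having only 4 control arrays.

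The samples, the gene lists and the rule for naming genes were chosen with earlier results of these data known. The rule named the 30 brightest genes, up to 8 members of each list with the highest signal among those detected on all 4 arrays, members detected on none, other members of the same families, the 30 most variable genes, the probes past the threshold in each beadchip fit or the 5 with the smallest p, and sex-linked transcripts; the text describes a selection of these. Gsk3a, Ntn5 and the partly detected genes named were chosen after their values were seen. Other genes outside the rule, among them Ttn, Xirp1, Myom1, Rhag, Hemgn, Epor, Tal1 and Cdh5, were also named with their values known. Alternatives were another detection threshold, other scalings, offsets and filters, the authors' table, the brightest probe only, leaving out each control array, and leaving out each mutant genotype. Promoter motifs were searched in Python 3.11.15.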

Additional observations from a re-analysis of the deposited data

Results flagged for a closer look

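Among 324 named genes and 43 list means, 20 genes and 2 lists had 1 control array whose gap to the nearest of the others, as a share of the range of the 4, was above Dixon's critical value for 4 samples at the 95% level. Chance gives such a gap in about 1 in 20 groups, and both counts are near that share. The 324 genes include the 30 chosen for their spread. Control 4 was the array apart for 12 of the 20 genes, control 1 for 3, control 3 for 3 and control 2 for 2. Of all named genes, 28.9% were highest and 40.6% lowest on control 4, so that count is not particular to these genes.

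Control 4 was higher than the rest for Calr (share of the range 0.967), Tpm1 (0.911), Hand2 (0.901), Wdr46 (0.884), Pbx3 (0.859) and Tpm3 (0.838). It was lower for the lysosomal protein gene Laptm5 (0.929), Vegfb (0.939), Myl12a (0.89), Zfpm2 (0.88), Wnt6 (0.872) and the endothelial gene Ramp2 (0.86). Hand2 stood at 10.39 on control 4 against 7.97 to 8.21, and Myl12a at 9.30 against 10.44 to 10.58. In Tpm1 the gap was small, with 13.88 against 13.67 to 13.69.

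Control 1 stood apart for the sex-linked Xist (0.946), Eif2s3y (0.867) and Kdm5d (0.85). Control 3 stood apart for Sfrp1 (0.941), Tomm22 (0.909) and Ttr (0.878), and control 2 for Atp2a1 (0.846) and the globin gene Hba-x (0.837). The mean deviation of the Notch ligands and receptors (0.83) was set apart by control 4, at 0.37 against -0.16 to -0.07. That of the T-box factors (0.853), over 2 genes, was set apart by control 2, at -0.24 against 0.05 to 0.10.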

How the results depend on the processing

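The count of probes detected on all 4 arrays (11713) was 9989 at a detection p of 0.01, 14788 in the authors' table, which counts detection on any of 16 arrays, and 11811 to 11923 over 3 arrays. The 30 brightest genes shared 29 with the main 30 under each alternative. Of the 30 most variable genes, 12 stayed among the 30 when detection on all 4 arrays was asked for, a filter that removes genes absent on some arrays, and 16 to 22 stayed when a control array was left out, the lowest without control 3. The beadchip count in the controls (6) was 1 with detection on all 4 arrays and 0 to 43 when a control array was left out: 43 without control 1, and 0 without control 2 or control 4. In the mutant arrays the count (1) was 2 with cyclic loess, an offset of 50 or the authors' table, 0 with median scaling, 0 without the KO or the hetDKO arrays and 2 without the DKO arrays. Beyond the smaller number of arrays or probes, the cause was not tested. A named probe that no longer met the filter without an array gave no value there. The order of arrays for the erythroid, yolk sac and liver, Hox and cardiomyocyte lists was checked under 5 other scalings, chosen after seeing the data, and their highest and lowest arrays were as reported. The erythroid gap between controls 3 and 2 ranged from 1.33 to 1.65. No paired analysis was possible because the beadchip comparison lies within a genotype, where the 2 beadchips share no replicate number. Dim probes near the detection limit, such as Tbx5 and Ryr2, are limited by signal over background.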
